A study of Mus musculus with 23 samples.

Results

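DC3 and DC1a cells from the spleens of untreated mice were compared by RNA sequencing in 4 of the 23 libraries of the series, 2 of DC3 and 2 of DC1a, chosen by their labels alone. DC3 cells were sorted as dendritic cells without CD8 and with low CD172, and DC1a cells as dendritic cells with high CD8 and no CD172. All mice behind the 4 libraries were wild type BALB/c and untreated, and the labels give neither their age nor how many went into a pool. Each library came from 1 pool of mice, pool 1 or pool 2. The same pools also gave DC1b cells (intermediate CD8, CD172 positive) and DC2 cells (low CD8, high CD172), which makes 8 untreated libraries. The remaining 15 libraries come from 4 pools of wild type BALB/c mice labelled TLI, an abbreviation that the labels do not spell out, and include 4 of DC3 and 4 of DC1a. The study's methods describe the sort of DC1a, DC1b and DC2 cells, and the gate of DC3 is known from the labels only.

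Classical dendritic cells take up antigen and present it to T cells, and they fall into a type 1 and a type 2 lineage. Type 1 cells need the transcription factors IRF8 and BATF3, carry XCR1 and CLEC9A, and in mouse spleen many carry CD8 alpha and present antigen of dead cells to CD8+ T cells. Type 2 cells carry CD172, the product of Sirpa, often depend on IRF4 and mainly prime CD4+ T cells, while plasmacytoid dendritic cells are a separate kind known for making type I interferon.

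The 8 untreated libraries held 19256447 to 28688091 estimated counts. Levels are given as CPM, counts scaled to a common library size after TMM normalization, always with pool 1 before pool 2, and a gene with 3 counts stood at 0.114 to 0.133 CPM in the 4 libraries. This floor covers counting error only, since amplified reads are not independent molecules. Log2 CPM correlated across genes at 0.803 between the DC3 libraries, at 0.888 between the DC1a libraries and at 0.787 to 0.794 between DC3 and DC1a libraries. Immunoglobulin genes took 7.32% and 3.97% of the counts in DC3 and 0.284% and 0.15% in DC1a cells.

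The transcripts of the sorting markers stood apart for CD8 alpha, while Sirpa was near the floor in both populations. Cd8a, for the CD8 alpha chain, stood at 0.386 and 40.5 CPM in DC3 cells and 539 and 518 CPM in DC1a cells (log2 fold change -4.69 ± 1.70 SE, edgeR adjusted p = 0.388). The groups did not overlap, but the DC3 libraries were far apart from each other, and the difference did not pass edgeR's quasi-likelihood test. Cd8b1, for the beta chain, stood at 12.4 and 0.114 CPM in DC3 cells and 0.321 and 3.42 CPM in DC1a cells, and these overlapped. Sirpa was close to the floor in both, at 1.03 and 0.228 CPM in DC3 cells and 0.201 and 0.311 CPM in DC1a cells, whereas DC2 cells held 254 and 187 CPM. Itgax, which encodes CD11c, overlapped at 134 and 215 CPM in DC3 cells and 186 and 161 CPM in DC1a cells, and Ptprc, which encodes the pan-leukocyte protein CD45, stood at 633 and 727 CPM against 483 and 439.5 CPM (edgeR adjusted p = 0.411). Of the lineage markers, Cd3e of T cells had 0 CPM in all 4 libraries.

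Between DC3 and DC1a cells, 23 of 16676 genes tested passed an adjusted p of 0.05 in edgeR's quasi-likelihood test (0.138%). Of these 16 were higher in DC3 (0.0959% of the genes tested) and 7 were lower (0.0420%). In all 23 the values of the groups did not overlap. Over all genes tested, both DC3 libraries lay above both DC1a libraries in 22.7% and below both in 23.9%, and 6.31% were higher and 5.18% lower at an unadjusted p under 0.05. The counts given below for gene lists are to be read against these shares, and several lie near them. The median log2 fold change over all genes was 0.06.

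Leaving out any of the 4 libraries leaves 1 library in its population, and more genes then pass the filter on low counts. The loss of calls given next therefore cannot tell how far a difference rests on that library. None of the 23 called genes changed sign. Without the DC3 library of pool 1, the DC3 library of pool 2, the DC1a library of pool 1 or the DC1a library of pool 2, edgeR called 0 genes, with 1818, 1605, 1088 and 1056 genes at an unadjusted p under 0.05. With the pool as a replicate block edgeR also called 0 genes, with 1668 at an unadjusted p under 0.05, and the 23 genes kept their direction at adjusted p of 0.0812 to 0.121. DESeq2's Wald test called 1006 genes, all 23 among them. The p-values measure the spread between 2 pools a population, and a gene that was not called is not shown to be equal. From each gene list the rule for naming takes the called members or, where there were none, the 4 most abundant. Not all of these are reported here. Other members, such as Xcr1, Ccr7, Clec9a and Cd40, were chosen after their values were seen.

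**Figure D1:**
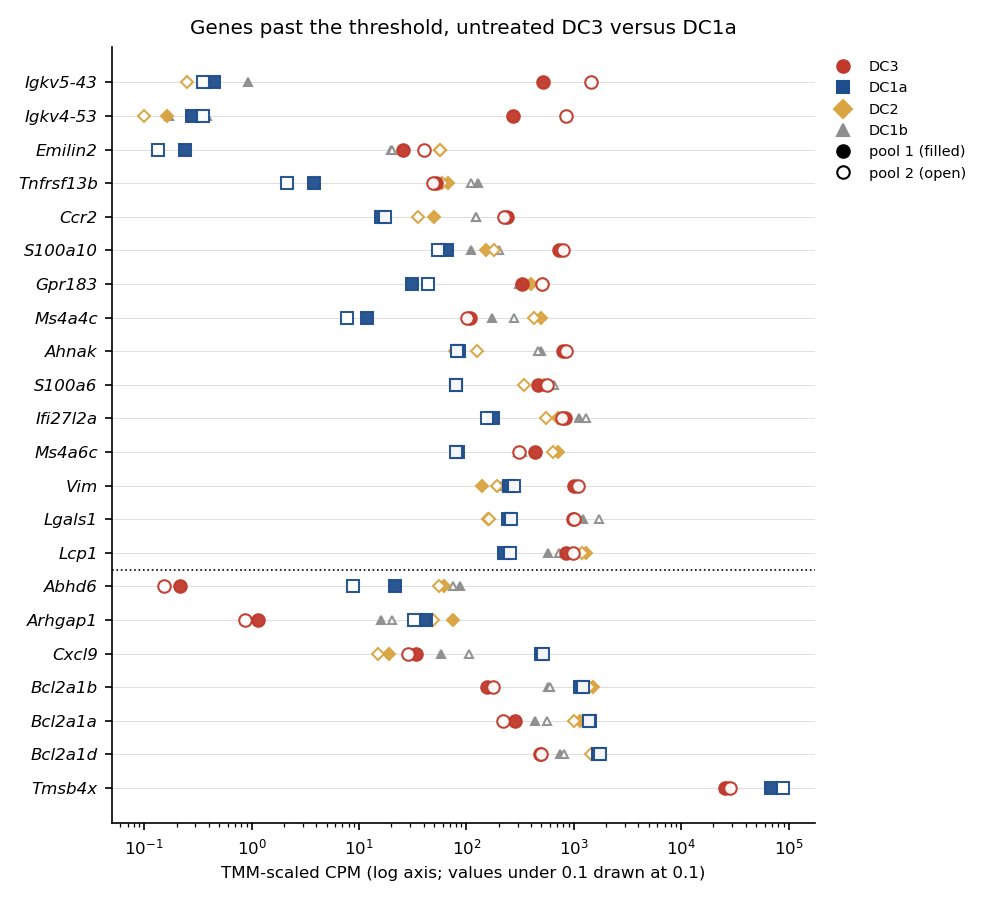
Level of 22 of the 23 genes past the threshold in the 8 untreated libraries, in TMM-scaled CPM on a log axis, with the 4 populations and the 2 pools marked as in the legend. The DC3 and DC1a symbols stand apart in every gene drawn, 15 with DC3 higher and 7 with DC3 lower.

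Receptors that steer cell movement were among the genes higher in DC3. Ccr2 (chr9:124101950-124113557), the chemokine receptor that draws monocytes and dendritic cell precursors out of the bone marrow, stood at 237 and 225 CPM in DC3 cells and 16.1 and 17.6 CPM in DC1a cells. Both DC3 libraries were above both DC1a libraries, 13.7-fold by the means (log2 fold change 3.78 ± 0.29 SE, edgeR adjusted p = 0.0336), and also above DC1b (122 and 123 CPM) and DC2 cells (49.9 and 35.6 CPM). Gpr183 (chr14:121952551-121965195), an oxysterol receptor that positions dendritic cells and B cells in the spleen, stood at 330.2 and 501 CPM in DC3 cells and 31.3 and 44 CPM in DC1a cells. It was 11-fold higher in DC3 (log2 fold change 3.46 ± 0.32 SE, edgeR adjusted p = 0.0360), with DC1b at 323 and 308 CPM and DC2 at 396 and 519 CPM. Of 18 receptors for chemokines and migratory lipids tested, these 2 were called. Over the list 5 were higher and 3 lower in DC3 at an unadjusted p under 0.05, both DC3 libraries lay above both DC1a libraries in 6 and below both in 4, and the median log2 fold change was 3.62. That median rests on genes with few counts, and was -0.54 over the members with at least 10 counts in every library and 0 without the DC3 library of pool 2. The 2 uncalled members with the highest levels had lower values in DC3. Xcr1, the type 1 receptor for XCL1, stood at 160.2 and 140.5 CPM in DC3 cells and 548 and 462 CPM in DC1a cells (edgeR adjusted p = 0.135), and Ccr7, which leads dendritic cells into T cell areas, at 107 and 97.9 CPM against 481 and 479 CPM (edgeR adjusted p = 0.104).

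Ahnak, S100a10 and S100a6, which stand in none of the lists, were also among the calls. Ahnak (chr19:8989284-9076914), a giant scaffold protein beneath the plasma membrane, stood at 800 and 854 CPM in DC3 cells and 84.7 and 81.3 CPM in DC1a cells, 9.96-fold higher in DC3 (log2 fold change 3.32 ± 0.27 SE, edgeR adjusted p = 0.0336). S100a10 (chr3:93555080-93564643), whose product binds annexin A2 and AHNAK, stood at 721 and 795 CPM in DC3 cells and 65.7 and 54.8 CPM in DC1a cells, 12.6-fold higher (log2 fold change 3.65 ± 0.35 SE, edgeR adjusted p = 0.0360). For both genes the DC3 libraries were above the 6 other untreated libraries, which held 79 to 498 CPM of Ahnak and 112 to 201 CPM of S100a10 in DC1b and DC2 cells. S100a6 (chr3:90612882-90624181), a calcium-binding protein, was 6.41-fold higher at 463 and 566 CPM against 80.0 and 80.6 CPM (log2 fold change 2.68 ± 0.27 SE, edgeR adjusted p = 0.0378), with DC1b and DC2 cells at 345 to 656 CPM.

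Vim (chr2:13573927-13582826), which encodes the intermediate filament vimentin, stood at 1015 and 1106 CPM in DC3 cells and 252 and 277 CPM in DC1a cells, 4.01-fold higher in DC3 (log2 fold change 2.00 ± 0.22 SE, edgeR adjusted p = 0.0459). DC1b and DC2 cells held 141 to 221 CPM, below DC3. Lcp1 (chr14:75131101-75230842), the actin bundler L-plastin, was 3.88-fold higher at 855 and 991 CPM against 222 and 254 CPM (edgeR adjusted p = 0.0378), while DC2 cells were higher still at 1287 and 1183 CPM. Lgals1 (chr15:78926725-78930465), the glycan-binding galectin-1, was 3.92-fold higher at 982 and 996 CPM against 242 and 262 CPM (edgeR adjusted p = 0.0378), and DC1b cells exceeded DC3 at 1230 and 1708 CPM. Lgals1 lay outside the 12 largest increases and is named after its values were seen.

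The other increases included Ms4a4c and Ms4a6c, of the same gene family, and whether they form groups was not tested. Emilin2, a glycoprotein of the extracellular matrix, stood at 25.9 and 40.0 CPM in DC3 cells and 0.241 and 0.133 CPM in DC1a cells, where the DC1a values are close to the floor (log2 fold change 7.41 ± 0.63 SE, edgeR adjusted p = 0.0336). DC1b cells held 20.0 and 20.5 CPM of it, and DC2 cells held more than DC3, 57.2 and 57.0 CPM. Tnfrsf13b, which encodes TACI, a receptor for the B cell survival factors BAFF and APRIL, was 17-fold higher at 52.2 and 48.8 CPM against 3.82 and 2.13 CPM (edgeR adjusted p = 0.0378). DC1b cells held more of it, 127 and 111 CPM, than DC3. Ifi27l2a (chr12:103442167-103443680), an interferon-inducible gene, was 4.86-fold higher at 835 and 784 CPM against 178 and 155 CPM (edgeR adjusted p = 0.0358). For this gene too DC1b cells exceeded DC3, at 1124 and 1305 CPM, and DC2 cells held 716 and 554 CPM. The membrane proteins Ms4a4c (109 and 102 CPM against 11.8 and 7.73 CPM, edgeR adjusted p = 0.0378) and Ms4a6c (438 and 309 CPM against 82.7 and 80.2 CPM, edgeR adjusted p = 0.0426) were highest in DC2 cells, at 498 and 424 CPM and 718 and 639 CPM. DC1a was thus the low population for both.

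The largest differences among the calls were in variable genes of the kappa light chain of antibodies, named after their values were seen because the naming rule takes protein-coding genes. Igkv5-43 stood at 515 and 1457 CPM in DC3 cells and 0.442 and 0.355 CPM in DC1a cells (edgeR adjusted p = 0.0336), and Igkv4-53 at 273 and 851 CPM against 0.281 and 0.355 CPM (edgeR adjusted p = 0.0378). Reads of related variable genes can be assigned to one another, so both levels are uncertain. With every immunoglobulin gene left out before scaling, an alternative added after the data were seen, 20 of the 21 other called genes remained.

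Among the 7 genes lower in DC3 were 3 copies of Bcl2a1, which encodes A1, a pro-survival protein of the BCL2 family. A further copy, Bcl2a1c, was not called. The called copies are so alike that reads of one can be assigned to another. The bases before the start of each called copy are shown here because the calls fall on these 3. They come from RefSeq on GRCm38.p6 and lie at chr9:88956670-88956899 on the plus strand for Bcl2a1a, chr9:89199023-89199208 on the plus strand for Bcl2a1b and chr9:88731915-88732100 on the minus strand for Bcl2a1d. Capitals mark GAGGAA or its reverse complement TTCCTC, a core that PU.1 and related ETS factors recognize.
Bcl2a1a: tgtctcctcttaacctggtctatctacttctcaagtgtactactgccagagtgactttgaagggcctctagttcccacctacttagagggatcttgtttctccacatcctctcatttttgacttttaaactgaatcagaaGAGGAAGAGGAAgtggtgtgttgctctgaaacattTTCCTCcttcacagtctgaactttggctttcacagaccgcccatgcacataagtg
Bcl2a1b: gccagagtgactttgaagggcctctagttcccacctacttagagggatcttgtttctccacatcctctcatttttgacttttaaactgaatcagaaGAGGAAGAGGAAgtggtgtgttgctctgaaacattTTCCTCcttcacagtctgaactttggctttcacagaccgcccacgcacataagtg
Bcl2a1d: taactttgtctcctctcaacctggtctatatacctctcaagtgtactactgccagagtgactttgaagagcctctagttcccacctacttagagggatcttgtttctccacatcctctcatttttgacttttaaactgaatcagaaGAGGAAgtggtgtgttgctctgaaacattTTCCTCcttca

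The last 120 bases of the Bcl2a1b sequence differed from those of Bcl2a1a by 1 substitution. The last 120 bases shown for Bcl2a1d, which end at its own start, aligned to a stretch of the Bcl2a1a and Bcl2a1b sequences that ends 44 bases before theirs. Against each, they differed by 1 substitution and 1 gap of 6 bases. The sequences of Bcl2a1a and Bcl2a1b held 3 matches each and that of Bcl2a1d held 2. In windows of 250 bases before the start, 23.3% of 32851 promoters held a match on either strand. Of the 17 called genes with a promoter in the table, 5 held a match in at least 1 promoter, the 3 Bcl2a1 copies among them. A gene can have several promoters, so these counts are in unlike units and cannot be set against each other. A match describes the letters only. Spi1, the gene of PU.1, stood at 181 and 217 CPM in DC3 cells and 276 and 239 CPM in DC1a cells (edgeR adjusted p = 0.698).

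Bcl2a1b (chr9:89199209-89207827) stood at 157 and 178 CPM in DC3 cells and 1151 and 1207 CPM in DC1a cells, 7.05-fold lower in DC3 (log2 fold change -2.82 ± 0.16 SE, edgeR adjusted p = 0.0203). Bcl2a1a (chr9:88956900-88962419) was 5.57-fold lower at 282 and 220.2 CPM against 1411 and 1384 CPM (log2 fold change -2.48 ± 0.22 SE, edgeR adjusted p = 0.0350), and Bcl2a1d (chr9:88723285-88731914) 3.49-fold lower at 486 and 499 CPM against 1675 and 1760 CPM (log2 fold change -1.80 ± 0.15 SE, edgeR adjusted p = 0.0336). In each copy the DC3 libraries were below the 6 other untreated libraries. The transcripts of these copies differ at 7 to 15 bases, so how their reads were shared out is uncertain. An alternative added after the data were seen summed them to 1 gene with Bcl2a1c, a further copy that was not called. The sum gave a log2 fold change of -2.24 (edgeR adjusted p = 0.0266). In that fit 18 of the 20 other called genes remained, and Vim was among the 2 lost, at an edgeR adjusted p of 0.0510. Bcl2a1a, Bcl2a1b and Bcl2a1d were the only calls among 16 BCL2 family genes tested. Bcl2, the founding pro-survival member, which was chosen after its values were seen, stood at 48.6 and 32.4 CPM in DC3 cells and 1.36 and 6.62 CPM in DC1a cells (edgeR adjusted p = 0.319).

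Cxcl9 (chr5:92321347-92328079), an interferon gamma-induced chemokine that attracts activated T cells, stood at 33.7 and 28.6 CPM in DC3 cells and 497 and 516 CPM in DC1a cells. It was 16.3-fold lower in DC3 (log2 fold change -4.02 ± 0.38 SE, edgeR adjusted p = 0.0360), with DC1b at 58.4 and 107 CPM and DC2 at 19 and 15 CPM. It was the only call among 16 chemokines tested, whose median log2 fold change was -2.26. Of these, 12 had both DC3 libraries below both DC1a libraries and 3 had both above, and 2 were higher and 9 lower in DC3 at an unadjusted p under 0.05. The other abundant chemokines were Ccl4 (372 and 419.7 CPM against 885 and 1046 CPM, edgeR adjusted p = 0.205), Ccl5 (199 and 125 CPM against 1015 and 703 CPM, edgeR adjusted p = 0.139) and Cxcl16 (45.8 and 117 CPM against 368 and 340.2 CPM, edgeR adjusted p = 0.247), all ligands that attract T cells or monocytes.

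Tmsb4x (chrX:167207093-167209315), which encodes thymosin beta 4, a peptide that holds actin monomers, stood at 25749 and 28551 CPM in DC3 cells and 68852 and 88686 CPM in DC1a cells. It was 2.90-fold lower in DC3 (log2 fold change -1.54 ± 0.13 SE, edgeR adjusted p = 0.0336), and DC1b and DC2 cells, at 25437 to 27034 CPM, were near DC3. Arhgap1, which switches off small GTPases, stood at 1.16 and 0.876 CPM in DC3 cells and 42.4 and 32.4 CPM in DC1a cells, 36.8-fold lower (log2 fold change -5.20 ± 0.54 SE, edgeR adjusted p = 0.0378). Abhd6, a monoacylglycerol lipase, stood at 0.214 and 0.152 CPM in DC3 cells and 21.7 and 8.79 CPM in DC1a cells (log2 fold change -6.34 ± 0.66 SE, edgeR adjusted p = 0.0378), with DC3 close to the floor. DC1b and DC2 cells held 15.9 to 74.3 CPM of Arhgap1 and 55.1 to 87 CPM of Abhd6, so DC3 was the low population for both. Of 23 genes of motility and the actin cytoskeleton tested, Vim and Lcp1 were higher in DC3, Tmsb4x was lower and the others were not called, among them Actb (2573 and 2529 CPM against 3173 and 2606 CPM) and Pfn1 (1596 and 1818 CPM against 3166 and 2216 CPM).

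The type 1 dendritic cell genes summed to a level in DC3 between DC1a and the other populations. The 22 markers summed to 5637 and 5952 CPM in DC3, 10111 and 9574 CPM in DC1a, 3260 and 3449 CPM in DC1b and 1214 and 1352 CPM in DC2 cells. None of them was called, 0 were higher and 7 lower in DC3 at an unadjusted p under 0.05, and the median log2 fold change was -1.11. Both DC3 libraries lay above both DC1a libraries in 3 of them and below both in 14. Irf8 stood at 876 and 870.5 CPM in DC3 cells and 662 and 544 CPM in DC1a cells and Batf3 at 269.9 and 280.3 CPM against 350.4 and 279.7 CPM, so both lineage factors were present in both populations. Naaa, a lysosomal amidase, stood at 674 and 532 CPM against 959.6 and 790.2 CPM, and Ppt1, a lysosomal thioesterase, at 978 and 1506 CPM against 2818 and 2742 CPM (edgeR adjusted p = 0.389). Cd207, the lectin langerin, stood at 33.1 and 14.4 CPM in DC3 cells and 959.9 and 821 CPM in DC1a cells (log2 fold change -5.23 ± 0.95 SE, edgeR adjusted p = 0.146), and Clec9a, the receptor for actin of dead cells, at 236 and 269 CPM against 669 and 625 CPM (edgeR adjusted p = 0.139). Cd24a, a sialylated surface protein, ran the opposite way at 586 and 556 CPM against 370.1 and 269.5 CPM (edgeR adjusted p = 0.868).

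**Figure D2:**
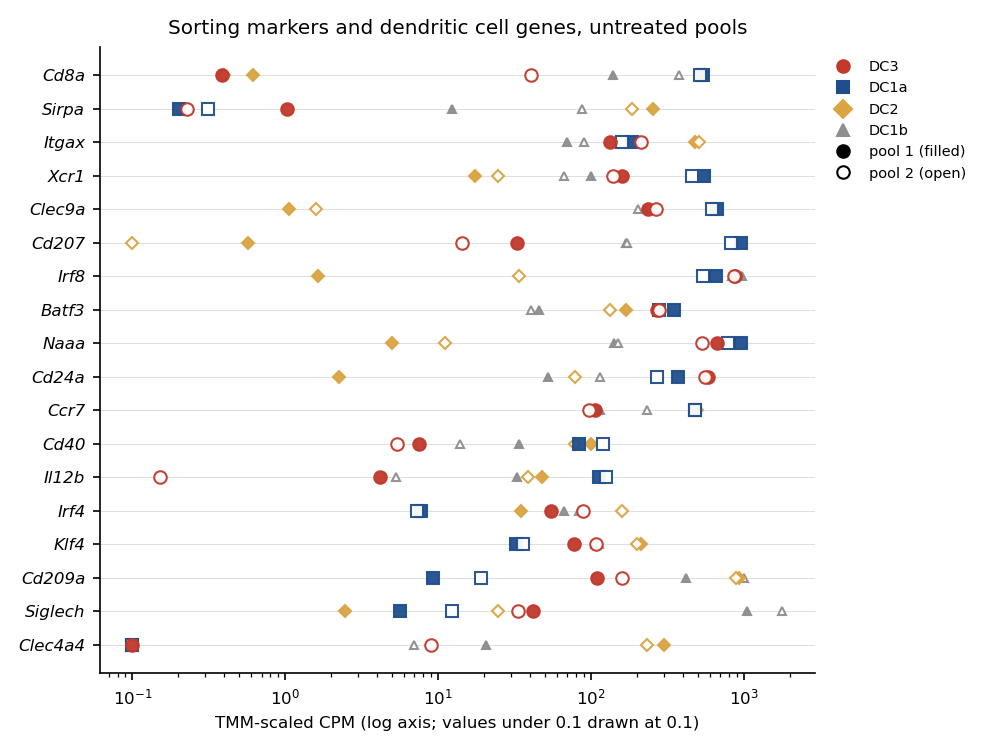
Levels of sorting markers and of genes of dendritic cell kinds and states in the 8 untreated libraries, in TMM-scaled CPM on a log axis, with populations and pools marked as in the legend. Irf8 and Batf3 of DC3 lie close to DC1a, while Cd8a and Cd207 lie far below.

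Type 2 markers were not called either. Their sum was 1207 and 1052 CPM in DC3 and 777 and 857 CPM in DC1a cells, below DC1b (2360 and 3537 CPM) and DC2 cells (3234 and 3002 CPM). Of 19 tested, 5 were higher and 0 lower in DC3 at an unadjusted p under 0.05, with a median log2 fold change of 0.90. Cd209a, a lectin of the DC-SIGN family, stood at 109 and 160 CPM in DC3 cells and 9.32 and 19.2 CPM in DC1a cells (edgeR adjusted p = 0.126), and Klf4, a factor of type 2 cells, at 77.8 and 109 CPM against 32.6 and 35.9 CPM (edgeR adjusted p = 0.148). Irf4 stood at 55.2 and 89.2 CPM against 7.79 and 7.28 CPM (edgeR adjusted p = 0.231) and is a gene of plasma cells too. Clec12a, a receptor for uric acid crystals, stood at 550.2 and 453 CPM against 558 and 646 CPM. Clec4a4, a defining receptor of splenic type 2 cells, stood at 0 and 9.03 CPM in DC3 cells and 0 and 0 CPM in DC1a cells, against 299 and 232 CPM in DC2 cells.

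Plasmacytoid markers summed to 1067 and 820.1 CPM in DC3 and 358 and 461 CPM in DC1a cells, against 9977 and 14639 CPM in DC1b cells. Of 28 tested, 0 were called, 7 were higher and 0 lower in DC3 at an unadjusted p under 0.05, and the median log2 fold change was 1.26. Siglech, their defining lectin, stood at 41.8 and 33.3 CPM in DC3 cells and 5.62 and 12.3 CPM in DC1a cells, against 1046 and 1794 CPM in DC1b cells. Ly6c2, a surface protein also found on monocytes, stood at 207 and 63.8 CPM against 19.5 and 32.2 CPM (edgeR adjusted p = 0.253).

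Of the genes of mature, CCR7-positive dendritic cells, 13 of 20 had both DC3 libraries below both DC1a libraries, and none was called. The 20 genes summed to 1689 and 1965 CPM in DC3 and 3158 and 3245 CPM in DC1a cells, and 1 was higher and 7 lower in DC3 at an unadjusted p under 0.05, with a median log2 fold change of -1.82. Cd83 (597 and 976 CPM against 779 and 1041 CPM) and Cd86 (332 and 509 CPM against 483 and 458 CPM), both surface proteins of activated dendritic cells, overlapped. Cd40, the receptor for help from T cells, stood at 7.54 and 5.37 CPM in DC3 cells and 83.3 and 121 CPM in DC1a cells (log2 fold change -3.98 ± 0.57 SE, edgeR adjusted p = 0.0836). Il12b, the p40 chain of IL-12, stood at 4.20 and 0.152 CPM against 114 and 126 CPM (edgeR adjusted p = 0.291), with the DC3 libraries far apart. Among 14 genes common to classical dendritic cells and precursors, Ccr2 was called, and the others did not pass, such as Flt3, the growth factor receptor of the lineage (118 and 171 CPM against 162 and 159 CPM), and Id2, a factor they need (2401 and 2245 CPM against 3440 and 2969 CPM, edgeR adjusted p = 0.412).

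The summed levels of plasma cell, B cell, T cell and basophil markers were higher in both DC3 libraries than in both DC1a libraries. In bulk RNA, fewer cells of a type and less RNA per cell cannot be told apart. The 11 plasma cell markers summed to 15972 and 10497 CPM in DC3 and 278 and 211 CPM in DC1a cells, or without immunoglobulin genes to 9548 and 4570 CPM and 260 and 187 CPM. Jchain, which joins secreted antibodies, stood at 8500 and 4072 CPM against 208 and 121 CPM (edgeR adjusted p = 0.313), and Igha, of IgA, at 4367 and 5263 CPM against 4.22 and 1.55 CPM (edgeR adjusted p = 0.131). Of 10 tested, 0 were called, 7 were higher and 0 lower in DC3 at an unadjusted p under 0.05, and 9 had both DC3 libraries above both DC1a libraries. In DC1a cells 2 of the 11 were at the floor and in DC3 cells 0.

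The 19 B cell markers summed to 36848 and 20213 CPM in DC3 and 2027 and 1174 CPM in DC1a cells, most of it Igkc, the kappa constant region (34833 and 19637 CPM against 1678 and 877 CPM, edgeR adjusted p = 0.314). Without immunoglobulin genes the sums were 374 and 185 CPM and 38.9 and 39.9 CPM, with 2 markers at the floor in DC3 and 7 in DC1a cells. Cd79a, a signalling chain of the B cell receptor, stood at 59.7 and 62 CPM against 1.57 and 1.69 CPM. Ms4a1, which encodes CD20, ran the opposite way at 0 and 0.114 CPM against 18.8 and 12.2 CPM.

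Natural killer cell markers overlapped as a sum, 985 and 598 CPM against 1134 and 876 CPM, with Ccl5 the largest part in DC1a cells. Their defining genes were near 0 in DC1a cells, with Nkg7 at 133 and 117 CPM against 0.201 and 0 CPM, Gzma, which encodes granzyme A, at 202 and 36.6 CPM against 0 and 0 CPM and Ncr1 at 33.1 and 49.1 CPM against 0.120 and 0 CPM. T cell markers summed to 144 and 89.7 CPM against 5.94 and 6.40 CPM, with 6 of 18 at the floor in DC3. Basophil and mast cell markers summed to 1109 and 41.4 CPM against 0.241 and 0.0888 CPM, so the DC3 libraries differed widely. Mcpt8, a basophil protease, stood at 473 and 11.4 CPM against 0.120 and 0.0888 CPM, and Cpa3, a mast cell and basophil protease, at 328 and 29.1 CPM against 0 and 0 CPM.

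No gene of the B, plasma, T, natural killer or basophil lists was called, and their median log2 fold changes came to 2.58, 5.74, 4.82, 7.72 and 10.10. These medians hold fitted values of genes at or near 0 in DC1a cells and are not sizes. Monocyte and macrophage markers summed to 2404 and 3588 CPM against 1710 and 1601 CPM. Ccr2 was the only call among the 21 tested, of which 4 were higher and 4 lower in DC3 at an unadjusted p under 0.05. Both DC3 libraries lay above both DC1a libraries in 7 and below both in 5, and the median log2 fold change was 0.05. Lyz2, which encodes lysozyme, stood at 1287 and 2513 CPM against 804 and 809 CPM (edgeR adjusted p = 0.316). C1qc of macrophages was at 0 CPM in all 4 libraries. Erythroid markers summed to 139 and 55.2 CPM against 1758 and 151 CPM, the DC1a library of pool 1 standing apart. Neutrophil (0.471 and 0.419 CPM against 3.86 and 0.178 CPM), platelet (0.686 and 0.343 CPM against 0.803 and 1.69 CPM) and stromal markers (18 and 22.2 CPM against 13 and 16.1 CPM) were low. The part of these cells in the 23 calls was not tested.

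**Figure D3:**
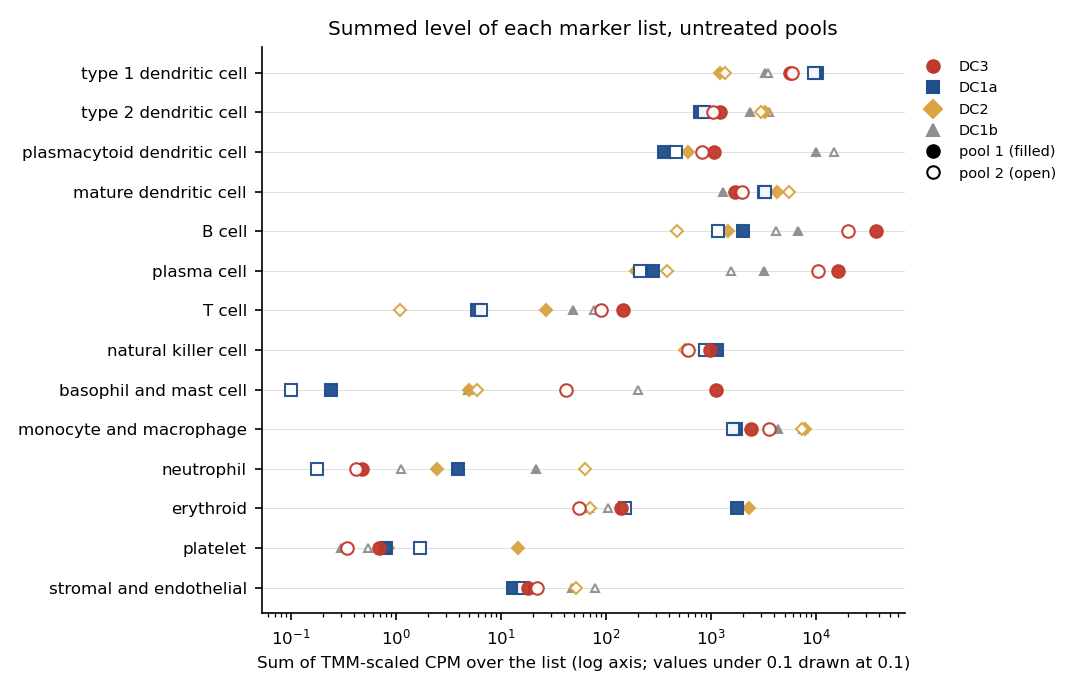
Summed level of each list of cell type markers in the 8 untreated libraries, in TMM-scaled CPM on a log axis, with populations and pools marked as in the legend. DC3 lies between DC1a and the other populations for type 1 markers and above the 6 other libraries for plasma cell and B cell markers.

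Antigen presentation genes were not called. Of 20 genes of MHC class II presentation tested, 0 were higher and 4 lower in DC3 at an unadjusted p under 0.05, with a median log2 fold change of -0.30. The most abundant was Cd74, the invariant chain, at 12253 and 19212 CPM in DC3 cells and 29437 and 27736 CPM in DC1a cells (edgeR adjusted p = 0.323), and H2-Aa and H2-Ab1, the chains of I-A, stood at 8175 and 11275 CPM against 16235 and 14856 CPM and 7839 and 8700 CPM against 14001 and 12588 CPM. Of 25 genes of MHC class I loading and cross-presentation, 1 was higher and 8 lower in DC3 at an unadjusted p under 0.05. B2m, the light chain of MHC class I, stood at 2487 and 2461 CPM in DC3 cells and 7301 and 7409 CPM in DC1a cells (log2 fold change -1.57 ± 0.22 SE, edgeR adjusted p = 0.0836), whereas H2-D1, a heavy chain, stood at 951 and 928 CPM against 1205 and 1103 CPM (edgeR adjusted p = 0.505). Of 26 lysosomal genes, Cst3, the protease inhibitor cystatin C, was the most abundant at 21814 and 31038 CPM against 57507 and 60143 CPM (edgeR adjusted p = 0.148), and Lipa, the acid lipase, stood at 15 and 17.2 CPM against 144 and 124 CPM (log2 fold change -3.06 ± 0.37 SE, edgeR adjusted p = 0.0619).

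No member of the sensing and response lists given next was called. Ifi27l2a, the interferon-inducible gene that was called, stands in none of them. Of 24 Toll-like receptor genes, 0 were higher and 2 lower in DC3 at an unadjusted p under 0.05, and Tlr11, which senses profilin of parasites, stood at 51.8 and 72.7 CPM against 171 and 131 CPM (edgeR adjusted p = 0.614). Of 29 interferon-stimulated genes, 7 were higher and 0 lower in DC3 at an unadjusted p under 0.05, with a median log2 fold change of 0.48, and Ifitm3, an antiviral membrane protein, stood at 878 and 921 CPM against 413 and 294 CPM (edgeR adjusted p = 0.193). Of 29 immediate early and NF-kB response genes, 6 were higher and 4 lower in DC3 at an unadjusted p under 0.05, and Fos stood at 1631 and 1416 CPM against 818 and 763 CPM (edgeR adjusted p = 0.132). Of 34 cell cycle genes, 0 were higher and 2 lower in DC3 at an unadjusted p under 0.05, with Pcna, the replication clamp, at 254 and 263 CPM against 214 and 204 CPM (edgeR adjusted p = 0.745). Of 39 lineage transcription factors, 11 were higher and 3 lower in DC3 at an unadjusted p under 0.05.

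Some receptors missed the threshold, and those given here were all higher in DC3. Fcer1g, the shared signalling chain of Fc receptors, stood at 534 and 761 CPM in DC3 cells and 136 and 115 CPM in DC1a cells (log2 fold change 2.37 ± 0.30 SE, edgeR adjusted p = 0.0660), Klrd1, the natural killer receptor CD94, at 47 and 45.4 CPM against 2.81 and 2.89 CPM (edgeR adjusted p = 0.0619), and Cd244a, the receptor 2B4, at 89.7 and 159 CPM against 8.80 and 9.02 CPM (edgeR adjusted p = 0.0660). Siglecg, an inhibitory sialic acid receptor, stood at 165 and 159 CPM against 16.2 and 31.6 CPM (edgeR adjusted p = 0.0910). Itgb7, the integrin beta 7 chain, stood at 221 and 215 CPM against 39.1 and 31.2 CPM (edgeR adjusted p = 0.117). Of the lists, 25 C-type lectin and Fc receptor genes, 28 immunoglobulin-like receptors, 28 adhesion genes, 20 costimulatory genes, 17 cytokines, 29 growth factor receptors and 17 uptake receptors were tested and 0 were called. At an unadjusted p under 0.05, 6 C-type lectin and Fc receptor genes were higher and 4 lower in DC3. The immunoglobulin-like receptors had 6 higher and 3 lower, the adhesion genes 4 and 3, and the costimulatory genes 0 and 2. The cytokines had 0 and 3, the growth factor receptors 3 and 2, and the uptake receptors 3 and 3. Of the 35 lists 6 held a called gene, and 14 of the 23 called genes stood in no list.

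The same comparison was made in the TLI pools, which share no library with the untreated ones, in a fit of 15 libraries with a batch term. There edgeR called 104 of 16400 genes (0.634%), 56 higher and 48 lower in DC3. The number of calls was 43 without pool 1, 85 without pool 2, 27 without pool 3 and 3 without pool 4. These fits had fewer libraries and another set of genes past the filter. The fall in calls therefore cannot tell how far the number rests on a pool. Of the 23 genes called in untreated mice, 21 had the same direction in the TLI pools and 14 were also called there, all in the same direction. Ccr2 stood at 167, 377, 408 and 462 CPM in the TLI DC3 libraries, ordered by level, and at 18.8, 30.2, 60.8 and 63.2 CPM in the TLI DC1a libraries (TLI log2 fold change 2.94, edgeR adjusted p = 0.0222). Cxcl9 stood at 22.3, 23.9, 26.3 and 36.4 CPM in DC3 and 222, 359, 369 and 437 CPM in DC1a libraries (TLI log2 fold change -3.66, edgeR adjusted p = 0.00232). Vim stood at 812, 1014, 1699 and 2587 CPM against 193, 196, 290.5 and 295 CPM (TLI log2 fold change 2.56, edgeR adjusted p = 0.000203).

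The genes called in both also included Gpr183, S100a10, S100a6, Ahnak, Ms4a4c, Ms4a6c, Ifi27l2a, Lgals1, Bcl2a1a, Bcl2a1b and Bcl2a1d. Igkv4-53 (TLI log2 fold change -0.96, edgeR adjusted p = 0.990) and Lcp1 (TLI log2 fold change -0.14, edgeR adjusted p = 1) were the 2 with the opposite sign in the TLI pools. Tmsb4x (TLI log2 fold change -0.57, edgeR adjusted p = 0.670) and Arhgap1 (TLI log2 fold change -0.63, edgeR adjusted p = 0.992) kept their sign without being called. Some genes that missed the threshold in untreated mice passed it in the TLI pools, and those given here were chosen after their values were seen. Cd8a (TLI log2 fold change -7.66, edgeR adjusted p = 0.0161), Cd207 (TLI log2 fold change -3.92, edgeR adjusted p = 0.0287), Ccr7 (TLI log2 fold change -5.09, edgeR adjusted p = 0.0270) and Il12b (TLI log2 fold change -8.96, edgeR adjusted p = 0.0349) were lower in DC3. Cd209a (TLI log2 fold change 3.06, edgeR adjusted p = 0.00232), Klf4 (TLI log2 fold change 2.03, edgeR adjusted p = 0.0121), Fcer1g (TLI log2 fold change 3.00, edgeR adjusted p = 0.000484) and Cd244a (TLI log2 fold change 2.89, edgeR adjusted p = 0.00102) were higher. A test of whether DC3 differed from DC1a by another amount in TLI than in untreated mice called 0 of 19597 genes with edgeR (0.00%), with 815 at an unadjusted p under 0.05, and 308 with DESeq2. Of the 23 genes, 4 had an unadjusted interaction p under 0.05, Igkv4-53, Emilin2, Lcp1 and Arhgap1, with an edgeR adjusted p of 1. TLI and batch are partly confounded, since all untreated libraries belong to batch 1.

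**Figure D4:**
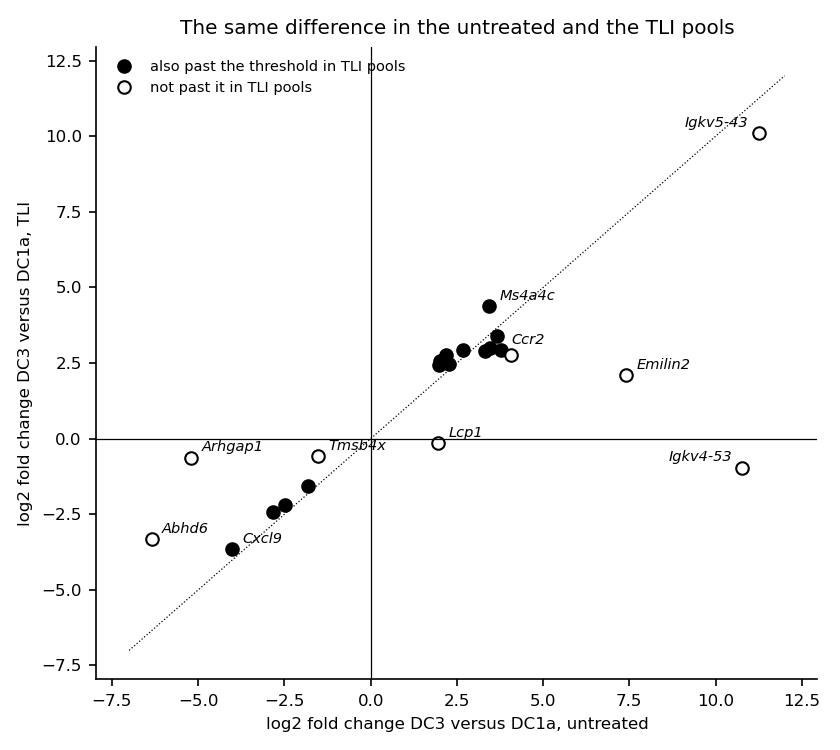
Fitted log2 fold change of DC3 over DC1a in the untreated pools against that in the TLI pools for 22 of the 23 genes called in untreated mice. Of those drawn, 20 have the same sign on both axes, and 14 were called in both.

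The exons of Bcl2, Bcl2a1b, Cd74, Clec9a, Cxcl16, Lcp1, Ms4a4c, Ms4a6c and Ppt1 overlap exons of another annotated gene. No source used here says that reads were counted by strand, so these levels are uncertain.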

How the data were processed

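RNA of sorted spleen dendritic cells was amplified with a SMARTseq v4 UltraLow kit and made into libraries with a KAPA HyperPlus kit, per the labels. The submitters' processing notes name Trimmomatic, HISAT2, StringTie and DESeq2 and the build GRCm38, and the study's methods name the annotation of Ensembl release 84. The deposited values are estimated counts per gene, whole numbers that the authors derived from StringTie's coverage, without scaling for depth or length. Plain read counts had been foreseen in the design, and edgeR was run on these estimates without rounding, since they are whole. GENCODE release M21 supplied gene positions, and a symbol for 47310 of 47729 identifiers.

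Counts were scaled by TMM, filtered with filterByExpr and tested with edgeR 4.0.16 in R 4.3.3 (quasi-likelihood test, Benjamini-Hochberg adjustment, threshold 0.05). The 8 untreated libraries were fitted with population as the only term, so that DC1b and DC2 also inform the spread. The TLI fit (15 libraries) and the test of the difference (23 libraries) had a batch term. DESeq2 1.42.0 was an alternative. A fold is a ratio of mean CPM, and correlations used a prior count of 2. The scripts were tested on simulated data. Whether the pools pair the libraries was checked by the correlation of deviations, 0.016 between DC1a and DC3 of the same pool, and the labels give DC3 and DC1a libraries of a number as sorted from 1 pool.

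Genes were named by rule, as the 12 largest increases and decreases among protein-coding genes past the threshold with the same direction in both pools and at least 10 CPM in the higher group. From each of 35 lists the rule takes called members or else the 4 most abundant, besides sorting genes and defining markers of other cells. The genes and lists were chosen with earlier results of these data known. Promoter sequences are from RefSeq, and 6 called genes had none in the table. Values of 1 called gene and of some list members are not reported here.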

Additional observations from a re-analysis of the deposited data

Results flagged for a closer look

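In 46 groups of 4 TLI libraries, one group for each called gene and population, the highest or lowest library stood apart from the others by Dixon's criterion (0.829) in 5, where chance gives about 1 in 20. The TLI DC3 library of pool 1 held 732.4 CPM of Igkv5-43 against 0.591 to 6.69 CPM in the other 3, and also the highest Bcl2a1b (314.7 CPM against 109 to 123 CPM) and Bcl2a1a (327.7 CPM against 189 to 204 CPM). The TLI DC1a library of pool 2 held 2.331 CPM of Igkv4-53, and the TLI DC3 library of pool 2 held 13.03 CPM of Abhd6, against at most 1.99 CPM in the others.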

How the results depend on the processing

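The number of genes called between untreated DC3 and DC1a cells moved with most settings, and the cause was not tested unless the setting itself gives it. Against 23 (16 higher, 7 lower), DESeq2's Wald test called 1006 (555 and 451), no filter on low counts 155 (94 and 61), a minimum of 10 counts in every library 97 (53 and 44), and all 23 libraries with a batch term 36 (25 and 11). The share of higher calls was 69.6% with edgeR, 55.2% with DESeq2, 60.6% without the filter and 54.6% with the stricter filter. With the replicate block 0 genes were called (0 and 0), with 1668 at an unadjusted p under 0.05 in edgeR, and with only the 4 libraries 0 (0 and 0), with 2213. Leaving out 1 library gave 0 to 0 calls, 0 to 0 higher and 0 to 0 lower; without a DC1a library the median of all genes was 0.193 or 0.164. The added alternatives gave 20 without immunoglobulin genes (13 and 7) and 19 with Bcl2a1 summed (14 and 5).

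In the TLI pools 104 genes became 795 with DESeq2 and 3 to 85 without 1 pool, and 99 with the replicate block. The difference between TLI and untreated mice gave 0 genes with edgeR, the block included, and 308 with DESeq2. None of the 23 called genes changed sign under the alternatives run. Of the values of uncalled genes, 37 in 16 genes had another sign, among them Cd8b1 (1.74 to -3.97) and Sirpa (1.27 to -0.16) without the DC3 library of pool 1. Of the list medians, 39 in 13 lists had another sign or came to 0. Of the values of single genes under an alternative, 1349 kept direction and side of the threshold, 153 lost and 82 gained the threshold, and 37 moved. Depth limits statements on genes near 3 counts, and 2 pools a population limit the rest.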
